A study of Mus musculus with 2 samples.

Results

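Of the 27998 genes listed for each library, 7 genes for proteins that carry, take up, store, export or oxidise iron are described: *Trf*, *Tfrc*, *Fth1*, *Ftl1*, *Slc40a1*, *Cp* and *Heph*. They were chosen by symbol, and each symbol matched 1 row. The cells were retinal pigment epithelium (RPE), the pigmented monolayer behind the photoreceptors, taken from 2 wild-type male C57BL/6J mice at postnatal day 36 (given as 4 to 5 weeks in the sample labels) and named R1 and R2. Sheets from both eyes of a mouse were pooled, broken into single cells, sorted as DAPI-negative and calcein-positive, and sequenced from the 3′ ends of transcripts, so there was 1 library per mouse, no treatment and no second genotype. Within each mouse, cells whose *Ttr* transcripts made up at least 5% of all UMIs (unique molecular identifiers, each marking 1 captured molecule) are called high-Ttr cells, and cells under 3% are called low-Ttr cells. *Ttr* encodes transthyretin, a carrier of thyroid hormone that is very abundant in RPE.

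Iron reaches the retina from the choroidal blood through the RPE, and the RPE also takes in the iron of the outer segments it digests. Transferrin carries iron in fluid, transferrin receptor takes it into the cell, ferritin (heavy and light chains) stores it, and ferroportin lets it out with the help of a copper oxidase. When iron is short, iron regulatory proteins bind a hairpin in the messenger RNAs, the iron-responsive element: in a 5′ UTR it holds back translation, and in a 3′ UTR it slows decay. Protein levels of genes with a 5′ UTR element can therefore change with no change in the transcript. Transcripts are all that was measured here.

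The elements are shown because they separate the members that iron controls through this hairpin from the others. In GENCODE M21 transcripts (build GRCm38) the loop CAGTGN was searched on the transcript strand, with a C 6 bases before it and the requirement that the 5 bases between could pair (G with T allowed) with the 5 bases after the loop. It was present in a 5′ UTR of 28 of 20504 protein-coding genes (0.137%) and in a 3′ UTR of 127 of 20867 (0.609%). *Fth1*, *Ftl1* and *Slc40a1* each held 1 in the 5′ UTR, for *Ftl1* in 1 of its 2 coding transcripts. *Tfrc* held 4 in the 3′ UTR of 1 of its 2 coding transcripts. These letters were not found in the UTRs of *Trf*, *Cp* or *Heph*. Each site follows in 29 bases, 5′ to 3′, with the loop in capitals.
Fth1 5′ UTR, chr19:9982732-9982760, plus strand: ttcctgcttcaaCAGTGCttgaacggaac
Ftl1 5′ UTR, chr7:45459779-45459807, minus strand: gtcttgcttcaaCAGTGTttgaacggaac
Slc40a1 5′ UTR, chr1:45925465-45925493, minus strand: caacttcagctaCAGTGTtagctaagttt
Tfrc 3′ UTR, chr16:32631219-32631247, plus strand: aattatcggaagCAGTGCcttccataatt
Tfrc 3′ UTR, chr16:32631598-32631626, plus strand: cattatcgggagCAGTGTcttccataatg
Tfrc 3′ UTR, chr16:32631663-32631691, plus strand: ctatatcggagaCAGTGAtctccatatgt
Tfrc 3′ UTR, chr16:32631710-32631738, plus strand: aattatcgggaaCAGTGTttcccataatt
A match describes the sequence and no activity in these cells.

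After filters, 2671 cells of R1 and 2847 cells of R2 remained, of which 2613 and 2828 were high-Ttr and 58 and 19 low-Ttr, with none between 3% and 5%. *Ttr* took 5.18% to 23.8% of UMIs in the high-Ttr cells of R1 and 5.14% to 25.3% in R2, and at most 2.66% and 0.755% in the low-Ttr cells. Median depth was 8614 and 7814.5 UMIs in high-Ttr cells but 3202 and 3836 in low-Ttr cells, and the median mitochondrial share was 1.30% and 1.25% against 2.58% and 3.35%. All high-Ttr cells had at least 3 of 8 RPE markers, as did 82.8% and 68.4% of low-Ttr cells, so the summed level separates the classes and this count does not. The list (*Rpe65*, *Rlbp1*, *Rgr*, *Lrat*, *Rdh5*, *Best1*, *Stra6*, *Rrh*) summed to 400 and 451 UMIs per 10000 there and to 35.3 and 24.4 in the low-Ttr cells, where *Best1* was at 0. Of the high-Ttr cells, 7 and 8 also held at least 3 markers of another cell type. Of the low-Ttr cells, 54 and 16 held a UMI of *Pax6* or *Dkk3*. Another 5 and 3 held at least 3 markers of another cell type (fibroblast in 3 and 2, microglia or macrophage in 2 and 1), 1 of which in R1 held *Pax6* or *Dkk3* as well. The remaining 53 and 16, all with *Pax6* or *Dkk3*, are called unmarked low-Ttr cells below. Values of the low-Ttr class include the marked cells unless the unmarked cells are named. The libraries shared 12 cell barcodes.

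In high-Ttr cells the members spanned the range from among the most abundant transcripts to near absence. *Trf* (chr9:103204001-103230444), which encodes the secreted iron carrier transferrin, ranked 8th of all genes in both mice with 130.6 UMIs per 10000 in R1 and 120.6 in R2 (mean over cells; 126 ± 7.06, SD over n = 2 mice). *Ftl1* (chr7:45457944-45459884), the light chain of ferritin, which helps to build the mineral core, ranked 14th and 13th with 56.9 and 57.1 (57.0 ± 0.139). *Fth1* (chr19:9980598-9985098), the heavy chain, which oxidises iron on entry, ranked 23rd and 18th with 32.4 and 41.4 (36.9 ± 6.36). Each UMI stands for 1 molecule read from its 3′ end, so these levels are compared without a length correction. The order *Trf*, *Ftl1*, *Fth1* held in both mice, and the gaps between them were larger than the spread between the mice.

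The receptor and the oxidases were scarce. *Heph* (chrX:96455359-96574485), hephaestin, a membrane copper oxidase that works with ferroportin, reached 0.289 and 0.225 UMIs per 10000 (0.257 ± 0.0450), and *Tfrc* (chr16:32608920-32632794), the transferrin receptor, 0.149 and 0.179 (0.164 ± 0.0212). *Heph* was above *Tfrc* in both mice, by less in R2. *Slc40a1* (chr1:45908068-45926523), which encodes ferroportin, the iron exporter, gave 7 and 2 UMIs in all high-Ttr cells together. *Cp* (chr3:19957054-20009145), ceruloplasmin, the secreted and membrane-anchored copper oxidase, gave 2 and 9. These last 2 genes swapped places between the mice, and their order is not resolved by so few UMIs.

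The shares of cells with at least 1 UMI followed the levels. *Trf*, *Fth1* and *Ftl1* were found in 99.9% or more of the high-Ttr cells of either mouse. *Heph* was found in 19.1% (95% exact binomial interval 17.6 to 20.7) and 13.1% (11.9 to 14.4), and *Tfrc* in 10.6% (9.48 to 11.9) and 10.6% (9.50 to 11.8). Thinned to 3000 UMIs per cell, which left out 184 and 192 shallower high-Ttr cells, *Heph* stood at 7.49% and 4.89% and *Tfrc* at 4.03% and 4.21%. *Slc40a1* was found in 0.230% (0.0843 to 0.499) and 0.0354% (0.000895 to 0.197) of the unthinned high-Ttr cells and *Cp* in 0.0765% (0.00927 to 0.276) and 0.212% (0.0779 to 0.461). Stray RNA in droplets can give single UMIs in cells that do not express a gene, so shares this low are not read as expression. Intervals here and below cover counting error only.

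**Figure D1:**
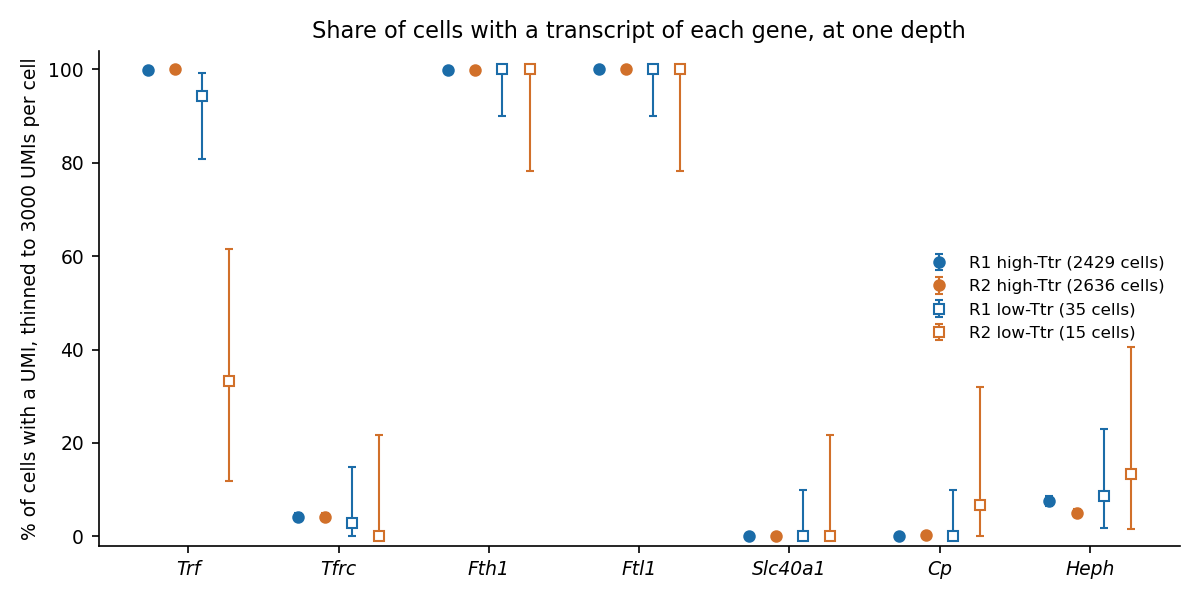
Share of cells with at least 1 UMI of each gene after thinning every cell to 3000 UMIs, for high-Ttr (filled circles) and low-Ttr cells (open squares) of R1 (blue) and R2 (orange), with 95% exact binomial intervals. The ferritin genes lie between 99.9% and 100% in all groups, *Trf* lies at 94.3% and 33.3% in the low-Ttr cells of R1 and R2, and the highest share of the other genes is 13.3% (*Heph*, low-Ttr cells of R2).

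How far single high-Ttr cells differed was measured after thinning 2024 and 1836 of them to 5000 UMIs. *Trf* had a variance 16.0 and 12.4 times its mean (counting alone gives about 0.99), against a median of 5.02 and 4.09 over 8 genes of like mean in each mouse, of which 0 and 1 varied more. Its variation beyond counting was 48.2% and 44.1% of the mean. *Fth1* had a variance 2.69 and 2.53 times its mean (32.0% and 27.3% beyond counting) and *Ftl1* 2.38 and 2.10 times (22% and 19.7%). Unthinned, the 5th and 95th percentiles of *Trf* per 10000 were 33.8 and 259 in R1 and 49.2 and 214 in R2, and those of *Ftl1* were 32.3 and 85.5, and 34.3 and 82.9. By each of these measures *Trf* varied more from cell to cell than the ferritin chains in both mice. The ratio of variance to mean also depends on the mean, and *Trf* had the highest mean of the 3. In thinned cells, genes of like mean to *Fth1* had a median ratio of 1.94 and 2.04, with 7 of 32 and 8 of 26 above *Fth1*. For *Ftl1* that median was 2.63 and 2.56, with 10 of 16 and 13 of 15 above it.

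*Trf* was lower in cells with more *Ttr*, and the ferritins were not. From cells with 5% to 8% *Ttr* to cells with 15% and over, mean *Trf* was 185, 150, 127, 118 and 94.3 UMIs per 10000 in R1 and 165, 137, 128, 120 and 99.7 in R2. With *Ttr* left out of each cell's total, the first and last of these bands stood at 199 and 113 in R1 and at 178 and 119 in R2. The lowest band held 138 cells in R1 and 27 in R2. *Ftl1* stayed between 54.4 and 58.7 in all 10 bands, and *Fth1* between 31.7 and 32.8 in R1 and between 32.4 and 42.0 in R2, with the lowest value in the 27 cells. With *Ttr* left out of the total, both ferritins were higher in the last band than in the first. *Ftl1* stood at 58.6 and 66.5 in R1 and at 59.3 and 65.2 in R2. *Fth1* stood at 34.8 and 38.0 in R1 and at 34.8 and 47.8 in R2. With high-Ttr cells split by depth into 3 equal groups, the deepest group had, relative to the shallowest, *Trf* per 10000 at a factor of 0.970 and 0.925, *Fth1* at 1.12 and 1.06, and *Ftl1* at 1.01 and 1.03.

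**Figure D2:**
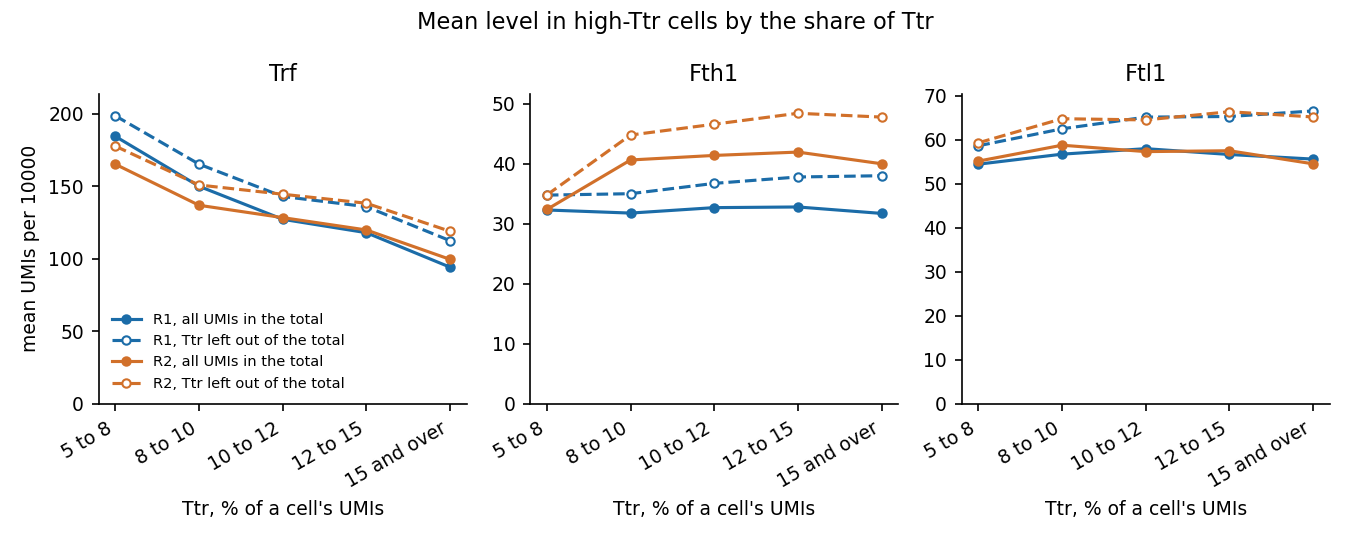
Mean UMIs per 10000 of *Trf*, *Fth1* and *Ftl1* in high-Ttr cells, in 5 bands of the share of UMIs taken by *Ttr*, for R1 (blue) and R2 (orange), with all UMIs (solid) or all but *Ttr* (dashed) in the total. With all UMIs in the total, *Trf* is highest in the 5 to 8% band (185 and 165) and lowest at 15% and over (94.3 and 99.7), while *Ftl1* lies between 54.4 and 58.7.

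Within high-Ttr cells *Trf* and the ferritins tended to run in opposite directions, and the 2 ferritin chains together. Over the cells thinned to 5000 UMIs, Spearman's rho of *Trf* with *Fth1* was -0.191 in R1 and -0.113 in R2, with *Ftl1* -0.167 and -0.104, and that of *Fth1* with *Ftl1* 0.192 and 0.0972 (n = 2024 and 1836 cells, which share a library in each mouse). These correlations are weak and are given as a description. The 18 pairs that involve a scarce gene lay between -0.0505 and 0.0427, and *Cp* had no UMI in the thinned cells of R1. Among 2149 genes found in at least 20% of these cells, *Ftl1* ranked 2145th and *Fth1* 2148th in their mean correlation with *Trf*, where the median gene had -0.00156. Counting noise weakens the correlations of scarcer genes, and these ranks were not compared among genes of like abundance. Nearest to *Trf* were *Clu*, a secreted chaperone (0.335 and 0.302), *Psap*, the precursor of lysosomal activator proteins (0.293 and 0.224), and *Hspa5*, a chaperone of the endoplasmic reticulum (0.277 and 0.193). Near to *Fth1* were *Cst3*, a secreted protease inhibitor (0.190 and 0.215) and *Chchd2*, a mitochondrial protein (0.176 and 0.145), with *Ftl1* 6th. Nearest to *Ftl1* were *Mif*, a cytokine (0.169 and 0.121), *Fth1* itself and *Tma7*, a small protein linked to translation (0.141 and 0.129).

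The same pattern in counts was modest for the ferritins. The 20% of cells with the least *Trf* averaged 25.9 (R1) and 26.3 (R2) *Trf* UMIs of 5000, and the 20% with the most 113 and 99.8. Mean *Fth1* was 17.9 in the former and 14.5 in the latter in R1, and 21.9 and 19.5 in R2. Mean *Ftl1* was 30.4 and 26.2, then 29.9 and 27.6. With the *Trf* UMIs left out of the total, these differences were -17.7% and -9.46% for *Fth1* and -12.4% and -6.43% for *Ftl1*, and *Clu* differed by 36.5% and 29.4% in the opposite direction. *Fth1* also went with the mitochondrial share of a cell (rho -0.201 and -0.142) and with its original depth (0.126 and 0.140), and *Trf* with *Ttr* (-0.204 and -0.220) and with the summed RPE markers (0.184 and 0.290). Their part in the correlations between the members was not tested, apart from depth. Given the original depth, rho of *Trf* with *Fth1* was -0.193 and -0.119. With *Ttr* left out of the counts before thinning it was -0.209 and -0.110 (1883 and 1711 cells). That takes *Ttr* out of the total but does not hold a cell's *Ttr* level fixed.

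**Figure D3:**
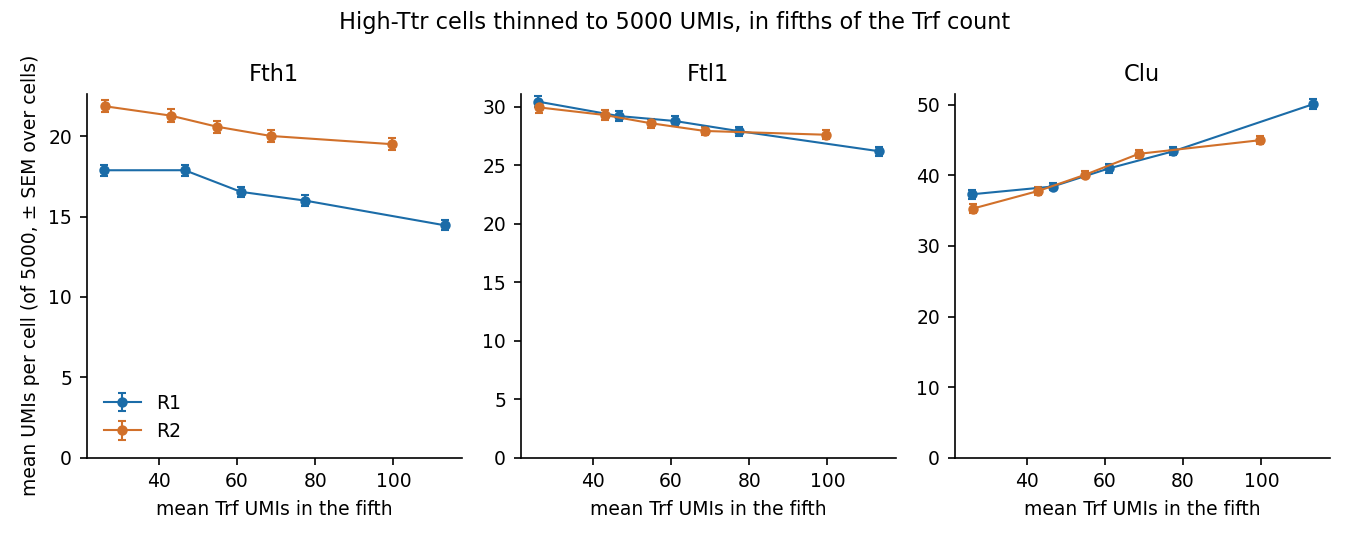
Mean UMIs (± SEM over the 367 to 405 cells of a group) of *Fth1*, *Ftl1* and *Clu* against the mean *Trf* count, in 5 groups of equal size, by *Trf* count, of the high-Ttr cells of R1 (blue) and R2 (orange) thinned to 5000 UMIs. *Fth1* and *Ftl1* are lower and *Clu* is higher in the group with the most *Trf* than in that with the least, in both mice. The SEM covers the cells of 1 mouse only.

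The low-Ttr cells of both mice had little *Trf*, while their ferritin levels overlapped those of the high-Ttr cells. The highest single ferritin values were in the low-Ttr cells with microglia markers. In unmarked low-Ttr cells the highest *Fth1* was 67.6 (R1) and 96.0 (R2) UMIs per 10000, against 110 and 129 in high-Ttr cells. Mean *Trf* was 6.15 UMIs per 10000 in R1 and 3.51 in R2 (120 and 25 UMIs in all), against 130.6 and 120.6 in high-Ttr cells. The lowest low-Ttr cell had 0, the median was 4.60 and the highest 27.6 in R1, and in R2 these were 0, 0.919 and 30.3. None reached the high-Ttr median, but the classes overlapped: 95 high-Ttr cells of R1 and 51 of R2 lay at or below the highest low-Ttr cell, and in R2 16 of the 19 low-Ttr cells lay below the lowest high-Ttr cell. In summed UMIs *Trf* was 20.5-fold (17.2 to 24.8) and 43.9-fold (29.7 to 67.8) lower, and in the unmarked cells alone 22.8-fold (18.7 to 28.0) and 70.8-fold (42.2 to 129) lower, so the 3 marked cells of R2 moved its fold by over 1.5 times. In the unmarked low-Ttr cells the mean level was 5.33 and 1.82 and the median 4.52 and 0.460. The highest values of both mice (24.6 and 27.6 in R1, 30.3 in R2) were in the 3 cells with microglia markers.

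Summed UMIs per mouse and class were tested with edgeR's quasi-likelihood test with the mouse as a block, over 11508 genes. Of these, 1275 passed an adjusted p of 0.05 (11.1%), 784 lower in low-Ttr cells (6.81%) and 491 higher (4.27%). Of the 6 members that passed the filter on low counts, 2 were called, *Trf* lower and *Cp* higher. *Cp* passed that filter only through the low-Ttr sums, where it is high. These are 2 genes against a background of 11.1%, and the number is too small to read a difference from. *Trf* fell by 5.59 on the log2 scale (SE 0.453, adjusted p 3.12e-32, Benjamini-Hochberg), by 5.03 in R1 alone and 6.33 in R2 alone. Without the marked cells the log2 fold change was -5.83 (adjusted p 1.97e-27, edgeR). It stayed called in all 14 alternatives that gave a test (adjusted p 1.09e-76 to 3.28e-21). Among them, the subtraction of 10% of each cell's UMIs as stray RNA left no *Trf* UMI in the low-Ttr sums (-20.2). The assumed 10% fixed that outcome, so this alternative adds no support. The test rests on 4 summed libraries with 1 residual degree of freedom, and 58 and 19 cells made the low-Ttr sums. In sums of cells, less RNA per cell and fewer cells with the transcript cannot be told apart.

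Summed *Trf* in the low-Ttr cells was 4.87% and 2.28% of its high-Ttr level, and *Ttr*, by which the classes were made, 6.53% and 3.15%. In the unmarked cells these were 4.40% and 1.41% for *Trf* and 6.42% and 3.18% for *Ttr*. For every 100 *Ttr* UMIs, high-Ttr cells held 11.5 *Trf* UMIs in R1 and 9.48 in R2, and low-Ttr cells 8.55 (7.03 to 10.3) and 6.87 (4.39 to 10.3), the latter interval taking in the high-Ttr value. Unmarked low-Ttr cells held 7.84 (6.33 to 9.63) and 4.22 (2.28 to 7.18), below the high-Ttr value in both mice, and the marked cells 14.8 (8.88 to 23.5) and 34.4 (15.6 to 70.0). *Rpe65*, the RPE isomerase, stood at 4.21 and 3.88 per 100 *Ttr* UMIs in high-Ttr and at 3.77 (2.81 to 4.97) and 1.65 (0.601 to 3.62) in low-Ttr cells. *Ftl1* stood at 5.05 and 4.54 per 100 *Ttr* UMIs in high-Ttr and at 82.1 and 129 in low-Ttr cells. The classes were cut by *Ttr*, so all ratios to *Ttr* are shaped by that cut and are given as a description. For *Ftl1*, whose levels per 10000 were similar in both classes, the rise follows from the cut. When 10% of each cell's UMIs were subtracted as free RNA of the mean profile, no *Trf* UMI was left in the low-Ttr sums. The 10% was assumed and not estimated. *Trf* made up 1.31% and 1.21% of UMIs in high-Ttr cells, against summed levels of 6.31 and 2.74 per 10000 in low-Ttr cells. The chosen 10% thus fixed this outcome in advance. Free RNA as the source of the remaining *Trf* was not tested.

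**Figure D4:**
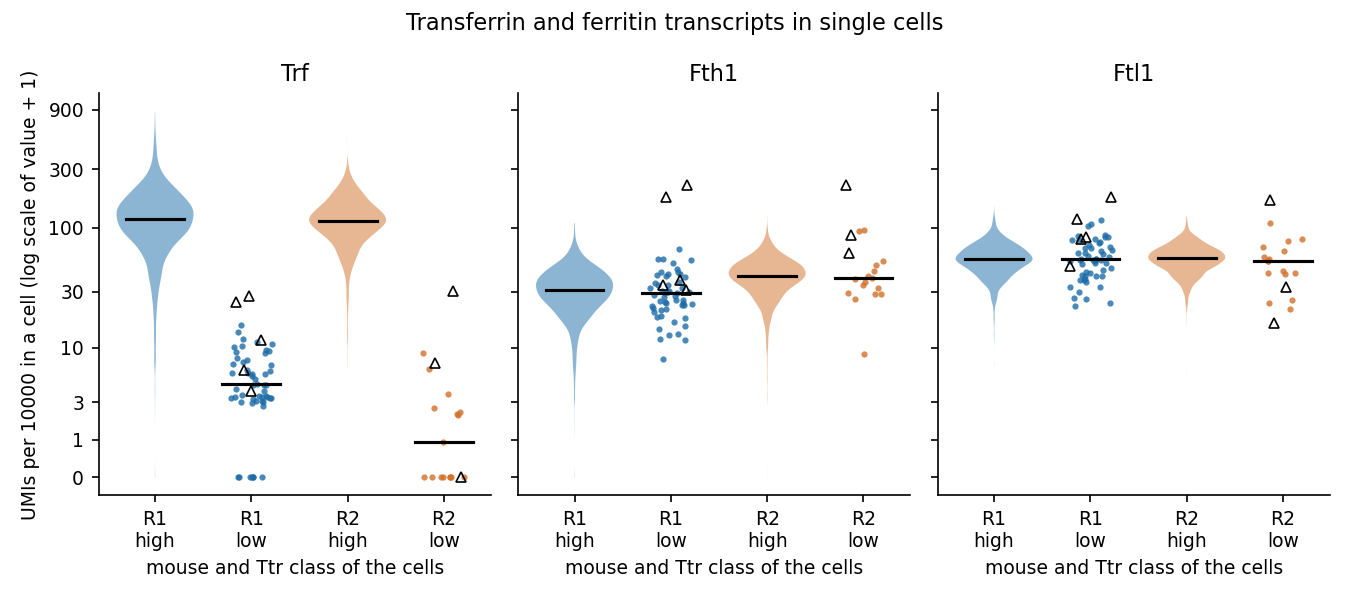
UMIs per 10000 in single cells on a log scale of the value plus 1, for *Trf*, *Fth1* and *Ftl1* in high-Ttr cells (violins) and low-Ttr cells (points) of R1 and R2. Black lines are medians, and open triangles are low-Ttr cells with at least 3 fibroblast or microglia markers. The *Trf* medians of low-Ttr cells (4.60 and 0.919) lie far under those of high-Ttr cells (118 and 114), while the *Ftl1* medians are 55.6 and 54.0 against 55.6 and 56.4.

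*Fth1* averaged 35.9 and 55.3 UMIs per 10000 in low-Ttr cells against 32.4 and 41.4 in high-Ttr cells, and *Ftl1* 61.5 and 57.3 against 56.9 and 57.1. Of the low-Ttr cells, 23 of 58 and 8 of 19 lay at or above the high-Ttr median of *Fth1*, and 28 and 7 at or above that of *Ftl1*. Part of the *Fth1* mean came from the marked cells. The 3 cells with microglia markers held 201 (mean of 2 in R1) and 222 (the 1 in R2) UMIs per 10000, and without all marked cells *Fth1* averaged 29.8 and 42.5 and *Ftl1* 57.7 and 54.4. Neither was called in the edgeR fit with the mouse as a block: *Fth1* changed by -0.62 (SE 0.331, adjusted p 0.284) and *Ftl1* by -0.81 (SE 0.347, adjusted p 0.133). Without the marked cells they stood at -0.80 (adjusted p 0.197) and -0.81 (adjusted p 0.231, edgeR). Without the block *Ftl1* was called lower (-0.80, adjusted p 0.0121, edgeR), and over all 14 alternatives its adjusted p ran from 0.0121 to 0.965. A p above the threshold does not show that the levels were equal.

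The sign of these small changes depends on the scaling. With TMM factors (1.26 and 1.37 for the low-Ttr sums, 0.787 and 0.736 for the high-Ttr sums) the median gene changed by -0.39, and with total UMIs only by 0.37. Under the second scaling *Fth1* stood at 0.16, *Ftl1* at -0.02, *Tfrc* at 0.082 and *Heph* at 0.43, none of them called. Relative to the median gene, *Fth1* stood at -0.24 and -0.21 under the 2 scalings, *Ftl1* at -0.42 and -0.40, *Tfrc* at -0.29 in both, and *Heph* at 0.06 and 0.05. *Trf* stood at -5.20 and -5.17, and *Cp* at 7.30 and 7.35. Of the genes called, 491 were higher and 784 lower with TMM, and 1078 were higher and 378 lower without it.

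**Figure D5:**
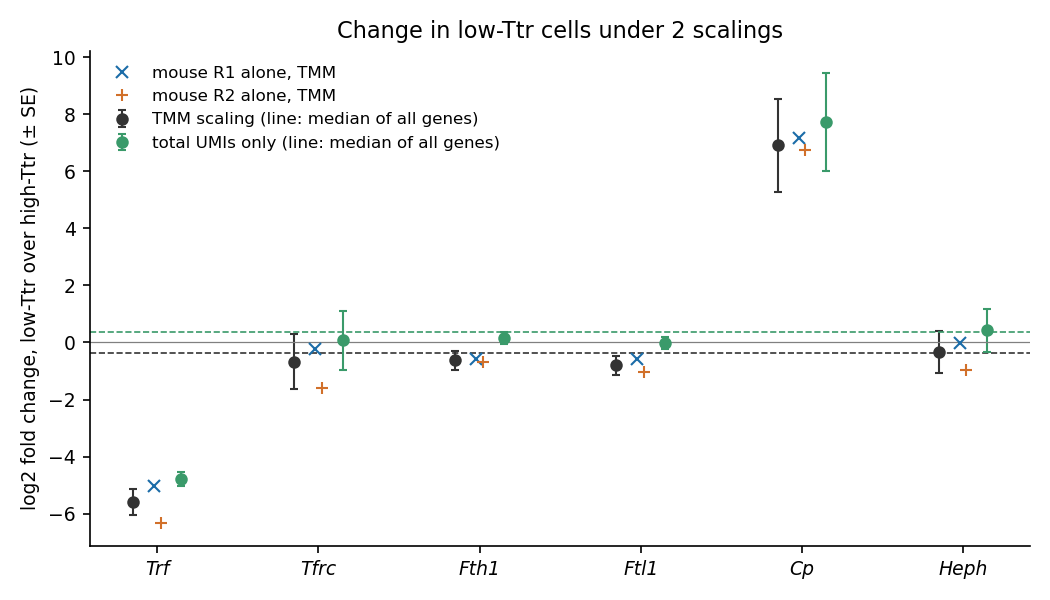
Log2 fold change (low-Ttr over high-Ttr) of the 6 members tested, with TMM scaling (black) and with total UMIs only (green). Bars are ± SE derived from the edgeR F statistic, and crosses are the fold in each mouse alone (TMM). Dashed lines are the medians of all genes (-0.39 and 0.37). *Trf* (-5.59 and -4.79) and *Cp* (6.91 and 7.72) lie far from both lines, while *Tfrc*, *Fth1* and *Heph* change sign between the scalings (-0.67 to 0.082, -0.62 to 0.16 and -0.32 to 0.43) and *Ftl1* stands at -0.81 and -0.02.

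The balance of the ferritin chains differed between the mice. High-Ttr cells held 0.583 *Fth1* UMIs per *Ftl1* UMI in R1 (0.578 to 0.588) and 0.732 in R2 (0.727 to 0.738). All low-Ttr cells held 0.586 (0.532 to 0.645) and 0.941 (0.824 to 1.07), above the high-Ttr value in R2. Unmarked low-Ttr cells held 0.528 (0.475 to 0.588) and 0.821 (0.708 to 0.951), so each interval takes in the high-Ttr value of its own mouse. Cells with microglia markers held 1.38 (1.02 to 1.87, 2 cells) and 1.32 (0.900 to 1.95, 1 cell), against 0.521 and 3.07 in the 3 and 2 cells with fibroblast markers. *Fth1* and *Ftl1* have processed pseudogenes in the mouse genome, so reads shared with such copies may have been left out by the counting.

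*Cp* was higher in the low-Ttr cells, on few molecules. It gave 4 UMIs in 4 of 58 low-Ttr cells of R1 and 6 UMIs in 3 of 19 of R2, against 2 UMIs in 2613 and 9 UMIs in 2828 high-Ttr cells. All 10 low-Ttr UMIs lay in unmarked cells, none in the cells with fibroblast or microglia markers. Per UMI sequenced, the ratio was 256 (36.6 to 2826) in R1 and 204 (59.6 to 640) in R2. *Cp* passed the filter on low counts only through the low-Ttr sums, where it is high, so among filtered genes it had to differ. edgeR gave a log2 fold change of 6.91 (SE 1.63, adjusted p 0.00044), given here as a description. The call held in all 14 alternatives (5.21 to 7.72, adjusted p 1.55e-08 to 0.00778), with the highest adjusted p when the filter was lifted (6.86). The others kept that filter, so they add no support, and all of them rest on few UMIs. Without the marked cells *Cp* stood at 7.12 (adjusted p 0.00067, edgeR).

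For the receptor, the exporter and *Heph* the low-Ttr cells were too few for a comparison. *Tfrc* gave 4 UMIs in 2 of 58 cells and 1 UMI in 1 of 19 (ratio to high-Ttr cells 1.36, 0.369 to 3.51, and 0.611, 0.0154 to 3.42), and edgeR -0.67 (SE 0.968, adjusted p 0.790). *Heph* gave 9 UMIs in 5 cells and 2 UMIs in 2 cells (1.57, 0.717 to 3.0, and 0.945, 0.114 to 3.43), with -0.32 (adjusted p 0.873, edgeR). Among cells thinned to 3000 UMIs, *Heph* was found in 8.57% (1.80 to 23.1) of 35 and 13.3% (1.66 to 40.5) of 15 low-Ttr cells, and *Tfrc* in 2.86% (0.0723 to 14.9) and in 0 of 15, which allows up to 21.8%. *Slc40a1* gave 1 UMI and 0 UMIs in the low-Ttr cells and was removed by the filter on low counts, and with that filter lifted it was not called (adjusted p 0.971, edgeR).

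In high-Ttr cells *Pax6* and *Dkk3* together gave 0.200 and 0.111 summed UMIs per 10000, against 22.9 and 22 in low-Ttr cells, and whether the UMIs there are stray RNA was not tested. The 321 (12.3%) and 199 (7.04%) high-Ttr cells with a UMI of either averaged 136 and 117 *Trf* UMIs per 10000, 31.5 and 41.5 of *Fth1*, and 55.8 and 56.3 of *Ftl1*.

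Around the members, a list of 74 other genes of iron and haem handling was read in the same fit. Of 57 tested, 3 were higher in low-Ttr cells, 9 lower and 45 not called, where 4.27% of all genes tested were higher and 6.81% lower (11.1% called), and nothing particular to the list is read from these counts. Their median change was -0.55 against -0.39 for all genes. With total UMIs only the split was 6 higher and 6 lower, so the direction of the list as a whole is not fixed. Without the cells marked as other types 4 were higher and 8 lower. By role, 1 of 11 uptake genes was higher and 2 lower, 1 of 6 systemic regulators was higher, 2 of 5 cellular regulators were lower, 1 of 5 storage and turnover genes was lower, 1 of 18 haem genes was higher and 3 lower, and 1 of 12 mitochondrial genes was lower. The hepcidin genes *Hamp* and *Hamp2* and mitochondrial ferritin *Ftmt* had no UMI in either class.

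Haem synthesis genes moved in opposite directions. *Alas1*, the rate-limiting enzyme of haem synthesis outside red cells, rose by 2.65 on the log2 scale (adjusted p 8.02e-10, edgeR), from 0.364 and 0.295 to 4.63 and 2.52 summed UMIs per 10000, with a UMI in 67.2% and 57.9% of low-Ttr cells. *Alad*, the enzyme of the next step, fell by 2.07 (adjusted p 1.09e-06), from 3.31 and 3.40 to 1.37 and 1.32. The haem or choline transporter gene *Flvcr2*, listed under its older symbol *Mfsd7c*, fell by 4.80 (adjusted p 1.15e-16) and was found in 80.9% and 74.2% of high-Ttr cells but gave 4 and 1 UMIs in the low-Ttr cells. *Alas1*, *Alad* and *Flvcr2* kept their direction and call in all 14 alternatives, *Flvcr2* with log2 fold changes from -14.7 to -4.05. Among these is the subtraction of an assumed share of stray RNA. *Flvcr2* stood at 2.98 and 2.80 summed UMIs per 10000 in high-Ttr cells and at 0.210 and 0.110 in low-Ttr cells. The assumed share thus fixed its fall in advance, so for *Flvcr2* that alternative adds no support. Without the marked cells *Alas1*, *Alad* and *Flvcr2* stood at 2.85, -1.92 and -4.90.

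Of the uptake genes, *Lrp2*, the endocytic receptor megalin, fell by 4.85 (adjusted p 5.02e-05, edgeR), with 1490 and 1670 UMIs in high-Ttr cells against 1 and 0 in low-Ttr cells (ratio 0.0858, 0.00217 to 0.479, in R1). *Slc11a1*, a metal transporter of phagosomes known from macrophages, rose by 6.68 (adjusted p 0.00155), from 9 and 2 UMIs in high-Ttr cells to 10 and 2 in low-Ttr cells, and it too passed the filter on low counts only through the low-Ttr sums (6.64, adjusted p 0.013, with the filter lifted). Only 1 of those 12 UMIs lay in a cell with microglia markers, and 9 and 2 lay in unmarked cells. *Id1*, a target of bone morphogenetic protein signalling, through which hepcidin is controlled in liver, rose by 2.05 (adjusted p 1.38e-06), from 0.527 and 0.481 to 4.05 and 3.07 UMIs per 10000. Without the marked cells *Lrp2* stood at -4.65 and *Id1* at 2.26, both still called. *Slc11a1* stood at 6.78 and was called there too, but that fit kept the filter, so its call adds no support.

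*Epas1* encodes a hypoxia-inducible transcription factor, and its own transcript is known to carry an iron-responsive element. With TMM *Epas1* fell by 1.83 (adjusted p 2.58e-05, edgeR), and by 1.63 without the marked cells (adjusted p 0.000674, edgeR). Summed UMIs per 10000 went from 3.21 and 2.98 to 2.10 and 0.768. The ratios were 0.655 (0.468 to 0.893) in R1 and 0.258 (0.104 to 0.532) in R2. Over its 14 alternatives the log2 fold change ran from -2.17 to -1.06. The other cellular regulator called, *Aco1*, which encodes an iron regulatory protein and is named here after its value was seen, fell by 1.69 (adjusted p 0.0186), but it was not called with total UMIs only (-0.92, adjusted p 0.345) or by DESeq2 (adjusted p 0.152). *Isca1*, an assembly factor for iron-sulphur clusters, fell by 2.19 (adjusted p 0.003), but it was not called with total UMIs only (adjusted p 0.102) or by DESeq2 (adjusted p 0.0539), with a range of 0.000305 to 0.102 over its 14 alternatives.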

How the data were processed

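The deposited files hold, for each mouse, whole UMI counts per gene and cell that the authors made with Cell Ranger 1.2.0 on GRCm38 after bcl2fastq 2.20.0.422; the barcodes that Cell Ranger called as cells were used as deposited, and the authors' later removal of ambient RNA and doublets was not applied here. The labels name v3 3′ chemistry, while the authors' methods name an earlier version of the 3′ kit. Totals were 26034378 UMIs in 2844 cells (R1) and 29732969 in 2994 cells (R2).

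Cells with under 500 genes (4 and 0) or over 5% mitochondrial UMIs (58 and 28) were left out, then the 4% of cells with the highest share of artificial doublets among their neighbours (111 and 119). Levels are UMIs per 10000 of a cell, averaged over cells. Shares and correlations used cells thinned to 3000 and 5000 UMIs. UMIs were summed per mouse and *Ttr* class (91115 to 27816489 per sum) and tested with edgeR 4.0.16 (R 4.3.3; TMM, filterByExpr, Benjamini-Hochberg over all genes, threshold 0.05), which was tested on simulated data first. The mouse was a block because both sums of a pair come from the same animal; between the mice, log2 differences of the high-Ttr and of the low-Ttr sums had r = 0.0427 over all genes tested and 0.482 over the 452 genes with at least 50 UMIs per low-Ttr sum on average. Each SE given for an edgeR log2 fold change is its absolute value over the square root of the F statistic of the test. DESeq2 1.42.0 and the other settings are given in the closing section. Each mouse gave 1 library, so the mouse, its library and the handling of that library cannot be told apart. The authors state that the replicates waited for unequal times before loading and that their RNA quality may differ. The block takes up the differences between the 2 animals and their libraries. The p-values rest on how far the class difference varied between them, on 1 residual degree of freedom, and on dispersion estimated across genes. They are no measure of the spread between mice.

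Ratios of UMIs have exact 95% intervals. The members and gene lists were chosen with earlier results of these data known. Genes named beside the members were, in the iron list, up to 5 per direction with the largest log2 fold change called and of the same direction in both mice, and, for each member found in at least 20% of cells, the 3 genes of highest mean correlation; 1 of these and a gene used to gauge stray RNA are not reported here. Positions and transcripts come from GENCODE M21 (GRCm38). *Flvcr2* was matched through its older symbol once the row names were seen.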

Additional observations from a re-analysis of the deposited data

How the results depend on the processing

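Counts of calls held within 1.5 times under all but 1 of 14 alternatives. Without the replicate block, so with the pairing by mouse ignored, 2274 genes and 20 of the iron and haem genes were called in place of 1275 and 12, and 3 members in place of 2. The member that joined was *Ftl1* (-0.80), and the block changed no call of another member. DESeq2 called 937 genes. Leaving out a mouse leaves 1 sum per class, so a fold with no test and no count of calls. *Trf* then stood between -6.33 and -5.03.

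With total UMIs in place of TMM, *Tfrc* (0.082), *Fth1* (0.16) and *Heph* (0.43) changed sign, and *Heph* did so against high-Ttr cells of at most 5000 UMIs (0.021), none of them called. The cause of the other differences was not tested. With *Ttr* left out of the totals, mean levels over both mice were 143 for *Trf*, 0.187 for *Tfrc* and 65.0 for *Ftl1*, and *Ftl1* was 57.4 as a ratio of sums.

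The correlation of *Trf* with *Fth1* (mean of the mice) was -0.0873 without thinning and -0.0895 with cells thinned to 3000 UMIs, that of *Trf* with *Ftl1* -0.0811 at 3000 UMIs, and that of *Fth1* with *Ftl1* 0.264 with counting variance subtracted, all in the direction of the values reported. Depth limits *Tfrc*, *Heph*, *Slc40a1* and *Cp* most, since the low-Ttr cells gave 1 to 9 UMIs of a scarce gene per mouse or none.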
